A study of Mus musculus with 18 samples.

Results

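The genes described here are 38 interferon-stimulated genes, listed by symbol and followed in the mouse heart from sham operation to 72 h after coronary ligation. All 38 were found among the 30583 genes of the deposited count table, and all 38 passed the filter on low counts that left 16311 genes for testing. RNA was sequenced from the infarcted left ventricular myocardium of 18 male C57BL/6JR mice aged 12 weeks, in 6 groups of 3 mice. In 5 groups the left anterior descending coronary artery was tied to cause a myocardial infarction, and tissue was taken at 10 min, or at 1, 6, 24 or 72 h. The sham group had the same surgery with the suture passed and left untied. The labels name no transgene or deletion in any group. All mice had sodium pentobarbital before surgery and isoflurane before they were killed. The design text gives 50 mg per kg of pentobarbital, while the labels of the 15 ligated mice run from 50 to 63 mg per kg, increasing along the time series.

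Interferons are secreted signals that cells make after sensing nucleic acids of viruses or of damaged cells. Type I interferons act through the receptor chains IFNAR1 and IFNAR2 and the kinases JAK1 and TYK2, which activate STAT2 among other factors. A complex with STAT2 and IRF9 binds the interferon-stimulated response element (ISRE). Interferon gamma acts through another receptor, and its signal reaches genes through the gamma-activated site (GAS). The genes switched on include sensors of foreign RNA, proteins that block viral replication, chemokines, and the factors of the pathway itself. In the infarcted heart, an interferon response has been described in macrophages that take up DNA of dying cells.

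The libraries held 18.2 to 25.06 M counts. The labels give cardiomyocytes as the cell type beside myocardial tissue. All 8 cardiomyocyte markers examined were detected, and so were those of endothelial cells, fibroblasts and macrophages, so the libraries are read as whole tissue. In such bulk samples, fewer cells of a type and less RNA per cell cannot be told apart. Reads from mitochondrial genes made up 23.83 to 26.13% of counts in the sham libraries and 8.41 to 10.53% at 72 h. Levels below are counts per M counts (CPM) after scaling of the libraries by trimmed means (TMM). A gene was called where edgeR's quasi-likelihood test gave a p under 0.05 after Benjamini-Hochberg adjustment over all genes tested, and "rose" and "fell" refer to called differences. Each p-value sets a difference between group means against the spread between mice of the same group. That spread was estimated jointly over all 6 groups, with 12 residual degrees of freedom.

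The regulatory sequences that link the members to the pathway were read from RefSeq promoters of GRCm38.p6, each covering 250 bases before the start of transcription and 50 after it. Promoters were matched for 28 of the 38 members. The ISRE core, searched on both strands as GAAA, any 2 bases and GAAA, was present for 16 of the 28 members (57.1%) and for 3.99% of the 27025 genes of the promoter table. The GAS, searched likewise as TTC, any 3 bases and GAA, was present for 7 of the 28 (25%) and for 9.55% of all genes. No match in a member shows only that these letters are not in this window, and a match is not a measured binding site. The 250 bases before the start are printed for 6 members with different time courses, 5′ to 3′ on the gene's strand, with ISRE core and GAS matches in capitals. Isg15 (chr4:156200819-156201068, minus strand), Ifit1 (chr19:34640639-34640888, plus strand) and Cxcl10 (chr5:92348890-92349139, minus strand) had higher levels at 72 h. Gbp2 (chr3:142620413-142620662, plus strand) and Gbp7 (chr3:142530086-142530335, plus strand) fell at 6 and 24 h. Irf1 (chr11:53769764-53770013, plus strand), shown for 1 of its RefSeq starts, was called at no time.
Isg15: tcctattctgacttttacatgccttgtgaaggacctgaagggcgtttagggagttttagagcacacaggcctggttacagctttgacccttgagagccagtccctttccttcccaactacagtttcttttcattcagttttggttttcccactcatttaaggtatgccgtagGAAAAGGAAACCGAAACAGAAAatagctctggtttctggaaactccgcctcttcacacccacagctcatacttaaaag
Ifit1: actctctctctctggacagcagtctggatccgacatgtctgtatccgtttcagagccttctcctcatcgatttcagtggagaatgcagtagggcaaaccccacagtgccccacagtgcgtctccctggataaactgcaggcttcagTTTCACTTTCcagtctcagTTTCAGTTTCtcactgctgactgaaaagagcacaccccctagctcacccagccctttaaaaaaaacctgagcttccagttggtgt
Cxcl10: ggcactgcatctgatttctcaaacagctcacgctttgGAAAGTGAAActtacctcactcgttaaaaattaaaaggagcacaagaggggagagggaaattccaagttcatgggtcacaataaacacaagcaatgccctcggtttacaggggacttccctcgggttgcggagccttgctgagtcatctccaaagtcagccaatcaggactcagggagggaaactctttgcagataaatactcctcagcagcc
Gbp2: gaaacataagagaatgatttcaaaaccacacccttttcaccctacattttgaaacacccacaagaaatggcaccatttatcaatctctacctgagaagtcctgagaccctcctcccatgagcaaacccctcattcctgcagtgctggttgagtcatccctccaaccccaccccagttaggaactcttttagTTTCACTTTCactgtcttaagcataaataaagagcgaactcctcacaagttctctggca
Gbp7: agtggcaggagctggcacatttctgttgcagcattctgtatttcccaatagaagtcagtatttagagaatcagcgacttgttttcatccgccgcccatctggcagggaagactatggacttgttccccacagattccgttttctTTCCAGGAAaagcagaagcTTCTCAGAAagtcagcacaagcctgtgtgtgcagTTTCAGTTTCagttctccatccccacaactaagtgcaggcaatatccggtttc
Irf1: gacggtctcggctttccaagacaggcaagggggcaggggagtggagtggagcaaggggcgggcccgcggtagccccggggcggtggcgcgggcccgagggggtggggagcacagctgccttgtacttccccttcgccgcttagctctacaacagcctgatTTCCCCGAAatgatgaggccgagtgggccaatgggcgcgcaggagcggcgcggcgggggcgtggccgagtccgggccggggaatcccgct

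The Isg15 promoter held 3 overlapping ISRE cores, beginning 78, 72 and 66 bases before the start. In Ifit1 the cores, which lie on the opposite strand and read TTTC, any 2 bases and TTTC here, began 104 and 85 bases before the start. Gbp7 held an ISRE core 53 bases before its start and GAS matches 106 and 87 bases before it, and Gbp2 held an ISRE core 59 bases before its start. The Cxcl10 core lay 213 bases before the start, and the Irf1 window held a GAS and no ISRE core. Of all genes tested, 34.2% rose at 72 h. Members with and without an ISRE core both included genes that rose then, 14 of 16 and 8 of 12. Their log2 fold changes at 72 h had medians of 1.48 and 0.96 and overlapped in range, -0.20 to 5.49 with a core and -0.59 to 2.26 without one. These shares are a description without a test.

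The members' time course had a late maximum. At 72 h, 32 of the 38 members were called higher than sham and 0 lower, against 34.2% and 32.2% of all genes. The highest group mean was at 72 h in 34 of 38 members, and that share was not computed for all genes. At 10 min and 1 h no member was called. At 6 h 10 members fell and 5 rose, and at 24 h 13 rose and 6 fell. Both splits changed with single libraries left out, as given below. The F test over all times called 36 of 38, leaving out Irf1 (edgeR adjusted p = 0.136) and Ifi35 (edgeR adjusted p = 0.165), where it called 78.4% of all genes.

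**Figure D1:**
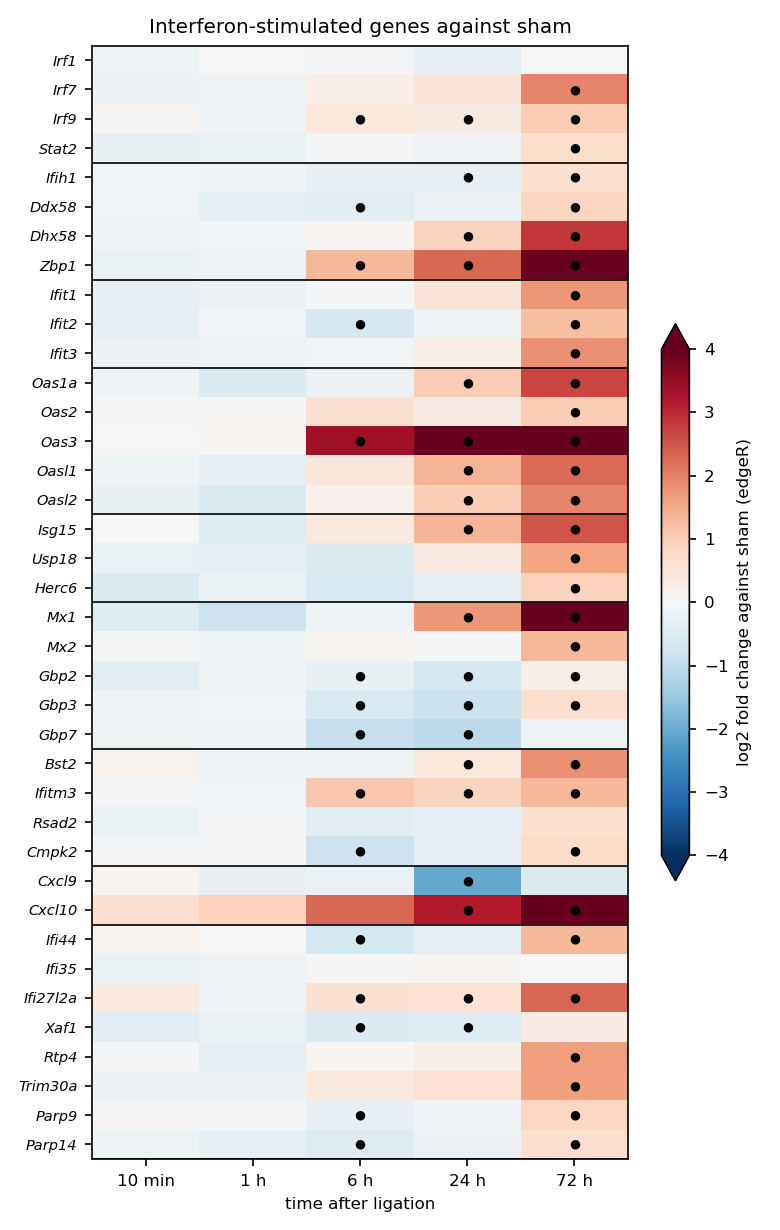
Log2 fold change against sham (edgeR) of each of the 38 members (rows, grouped by role between the lines) at 5 times after ligation (columns). Dots mark called differences, and the colour scale stops at 4 in each direction. The 72 h column holds 32 dots, all on higher values, and the 6 h column holds 10 dots on lower values and 5 on higher ones.

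Against the background of all genes, the counts read as follows. At 10 min and 1 h, edgeR called 0 members, with 5 and 2 of 38 members at an unadjusted p under 0.05, where 7.01% and 5.51% of all genes were. Of all genes it called 0.0736% at 10 min (0.0307% higher and 0.0429% lower) and 0.294% at 1 h (0.288% higher and 0.00613% lower). DESeq2 called 1 member at 10 min, Gbp2 (lower, log2 fold change -0.43), and 0 at 1 h. At 6 h, 15 of 38 members (39.5%) were called where 28.4% of all genes were. Members rose in 13.2% of cases, against 16.3% of all genes, and fell in 26.3%, against 12.2%. At 24 h, 19 members (50%) were called against 43.8% of all genes. Members rose in 34.2% of cases, against 23.7% of all genes, and fell in 15.8%, against 20.2%. At 72 h, 84.2% of members rose against 34.2% of all genes, and 0 fell against 32.2%.

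**Figure D2:**
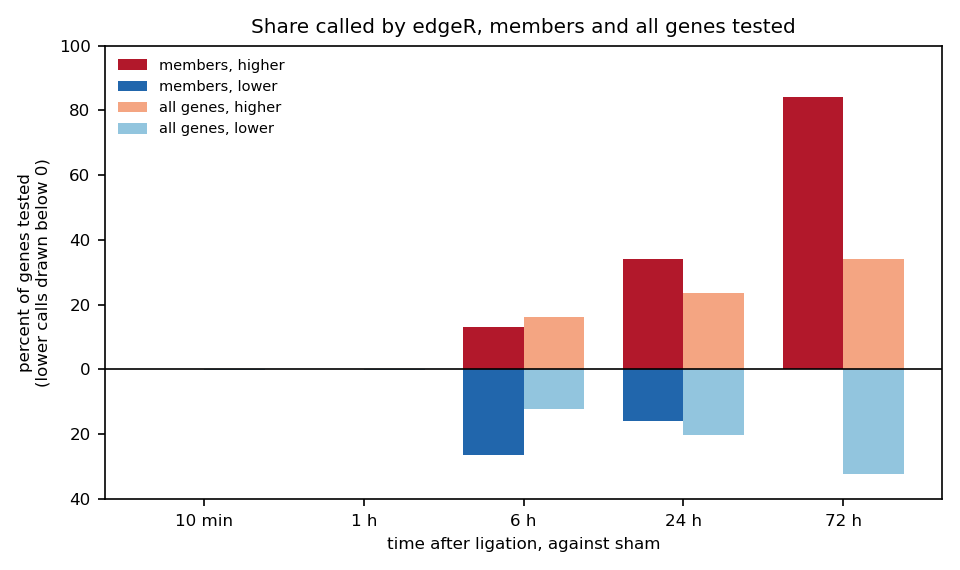
Percent of the 38 members and of all 16311 genes tested that edgeR called against sham (y axis, higher above 0 and lower below 0) at each time (x axis). The member bar at 72 h reaches 84.2% higher beside 34.2% of all genes, and at 6 h it reaches 26.3% lower beside 12.2%.

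The members' median log2 fold change over the 5 times was, in order, -0.18, -0.18, -0.11, 0.26 and 1.31. The median over all genes stayed between -0.01 and 0.03. Of consecutive times, the step from 24 to 72 h held the most calls, with 34 of 38 members higher and 0 lower, where 50.5% of all genes were called (24.4% higher and 26.1% lower). From 1 to 6 h, 5 members rose and 5 fell (14.5% and 10% of all genes, 24.5% in all). From 6 to 24 h, 8 rose and 2 fell (14.2% and 13.7% of all genes, 27.8% in all). Without 24 h replicate 3 this became 3 and 4, and with library-size scaling 18 and 1. From 10 min to 1 h, 0 were called by edgeR (0.307% of all genes called, 0.251% higher and 0.0552% lower), with 3 at an unadjusted p under 0.05, and 0 by DESeq2.

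Single libraries weighed on the 6 and 24 h counts. The per-library median of the members, as a log2 difference from the sham mean, was -0.03, -0.15 and 0.61 in the 3 libraries at 24 h. Replicate 3 had the highest value of its group in 36 of 38 members. Without it, the 24 h count was 8 higher and 11 lower, and the members' median log2 fold change was -0.11. At 6 h the medians were 0.14, -0.38 and -0.09. Replicate 1 was highest in 29 of 38 members, and without it 2 members rose and 11 fell. The excess of falls at 6 h was not kept by every alternative. Without 6 h replicate 2, 5 rose and 4 fell, without sham replicate 3, 4 rose and 4 fell, and the fit on the 2 groups gave 6 and 6. The total of 15 calls dropped to 8 without sham replicate 2 (3 rose and 5 fell). The 72 h libraries lay close together at 1.43, 1.25 and 1.12, and in 34 members all 3 exceeded every sham library, as in 39.3% of all genes. In 1 member, Cxcl9, all 3 lay below sham, as in 36.5% of all genes.

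Replicate 1 of 6 h and replicate 3 of 24 h also carried the most neutrophil transcripts of their groups. They were likewise highest in macrophage and monocyte, dendritic cell and endothelial markers, and lowest in cardiomyocyte markers. In fibroblast markers neither was highest. The summed level of 7 neutrophil markers was 5.38 to 7.57 CPM in sham. At 6 h it was 923, 432 and 269 CPM in replicates 1, 2 and 3, and at 24 h 296, 108 and 984 CPM. At 72 h, when the members were highest, it had come down to 66.3 to 79.7 CPM. The sum of 8 macrophage and monocyte markers ran from 182 to 204 CPM in sham, 499 to 717 CPM at 24 h and 2769 to 3600 CPM at 72 h. By replicate it was 275, 229 and 160 CPM at 6 h and 499, 504 and 717 CPM at 24 h. Fibroblast markers (6 genes) went from 679 to 723 CPM in sham to 6424 to 8660 CPM at 72 h. The 5 dendritic cell markers moved from 0.985 to 1.77 CPM to 20.4 to 26.0 CPM, and the 8 cardiomyocyte markers from 55730 to 60950 CPM to 15200 to 19790 CPM. By replicate, the cardiomyocyte sum was 48140, 52110 and 59350 CPM at 6 h and 37370, 38190 and 24480 CPM at 24 h. No marker of these lists was at 0 throughout a group, and the part of these cell types in the members' levels was not tested.

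**Figure D3:**
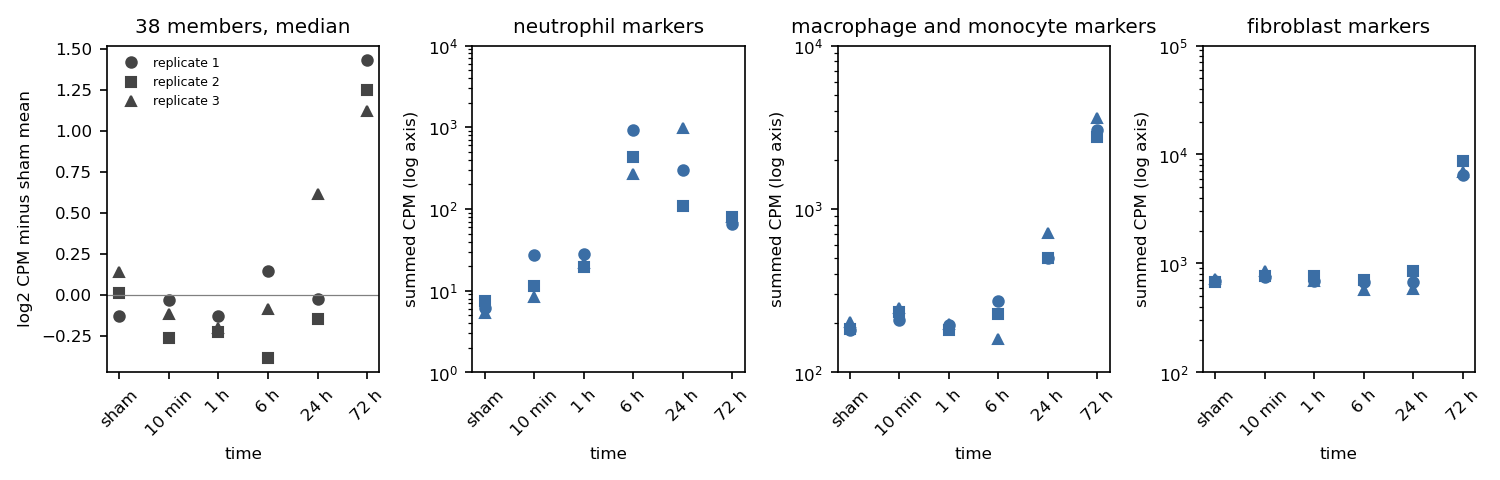
Left panel, the median over 38 members of the log2 CPM difference from the sham mean in each library (y axis) by time (x axis), and then the summed CPM of neutrophil, macrophage and monocyte, and fibroblast markers on log axes. Symbols stand for replicates 1 to 3 of each group. The member median reached 1.12 to 1.43 at 72 h, where neutrophil markers were at 66.3 to 79.7 CPM and macrophage markers at 2769 to 3600 CPM.

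The scaling also bears on these counts, because the TMM factors ran from 0.8251 to 1.434, with all 3 libraries at 72 h above the others. With scaling to library size alone, the median of all genes moved to -0.12, 0.20 and 0.61 at 6, 24 and 72 h. Of all genes, 11.7% were then higher and 17.2% lower at 6 h. The member counts became 4 higher and 13 lower at 6 h, 15 and 4 at 24 h, and 37 and 0 at 72 h. At 72 h, 34 of 38 members lay above the median of all genes under TMM and under both other scalings tried.

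Among the transcription factors, Irf7, Irf9 and Stat2 rose by 72 h and Irf1 did not. Irf7, the factor that amplifies interferon production, stood at 13.3, 17 and 17.1 CPM in sham and at 78.1, 51.6 and 55.0 CPM at 72 h. The log2 fold change was 1.96 ± 0.26 SE (standard error of the fit; edgeR adjusted p = 7.6e-06). At 24 h the libraries held 20.6, 16.1 and 30.9 CPM, overlapping sham. Stat2, a part of the ISRE-binding complex, went from 20.9, 22.2 and 26.0 CPM in sham to 38.1, 36.9 and 38.2 CPM at 72 h (0.71 ± 0.15, edgeR adjusted p = 0.00043). Those groups did not overlap. Irf9, the DNA-binding part of the complex, was higher at 6 h (0.43), 24 h (0.36) and 72 h (1.00, edgeR adjusted p = 1.05e-06). The 6 h call was lost with library-size scaling and without sham replicate 2 or 6 h replicate 1. The 24 h call was lost in the fit on the 2 groups and without any single sham library or 24 h replicate 3. Irf1, a factor induced mainly by interferon gamma, was at 30.5, 34.5 and 30.8 CPM in sham and 31.1, 30.7 and 32.1 CPM at 72 h (-0.03 ± 0.13, edgeR adjusted p = 0.854). With library-size scaling its 72 h value was 0.56 and called higher, below the shift of all genes. At 24 h it was lower without replicate 3 (-0.49, edgeR adjusted p = 0.00545), with no filter and with the replicate block (edgeR adjusted p = 0.0446 and 0.0424). Irf7 overlaps Phrf1 on the opposite strand and Irf9 overlaps Rnf31 on its own strand, and the strand setting of the counting is not given in the sources used here.

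All 4 nucleic acid sensors were above sham at 72 h. Zbp1, a sensor of Z-form nucleic acids that can trigger cell death, had the largest rise of the 4. It stood at 1.11, 0.674 and 1.07 CPM in sham, 2.86, 1.67 and 2.72 CPM at 6 h, 3.06, 2.58 and 8.82 CPM at 24 h and 17.5, 13.6 and 13.7 CPM at 72 h. No ligated library from 6 h on fell within the sham range. The log2 fold changes were 1.33, 2.31 and 3.96 (72 h edgeR adjusted p = 3.37e-07). Without replicate 3 the 24 h mean was 2.82 instead of 4.82 CPM, and the 6 h call was lost without any single sham library or 6 h replicate 1 or 3. Dhx58 (LGP2), a regulator of the RNA sensors, rose at 24 h (0.89, lost without replicate 3) and 72 h (2.83, edgeR adjusted p = 1.58e-08). The RNA helicases Ddx58 (RIG-I) and Ifih1 (MDA5) had another course. Ddx58 fell at 6 h (-0.44, edgeR adjusted p = 0.0362) and Ifih1 at 24 h (-0.34, edgeR adjusted p = 0.0461), before rises of 0.85 and 0.65 at 72 h. The fall of Ddx58 was lost without replicate 2 or 3 of either group. That of Ifih1 was lost with RLE or library-size scaling, with no filter and in the fit on the 2 groups. It was also lost without sham replicate 2 or 3 or 24 h replicate 1 or 2.

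The 3 IFIT genes, whose proteins bind viral RNA ends and translation factors, rose together at 72 h. Ifit1 was at 7.03, 7.05 and 8.26 CPM in sham, 7.42, 5.94 and 19.0 CPM at 24 h and 26.1, 27.7 and 22.2 CPM at 72 h. At 24 h replicate 3 alone exceeded sham, and without it the 24 h mean was 6.68 instead of 10.8 CPM. The 72 h difference was 1.76 ± 0.33 SE (edgeR adjusted p = 0.000194). Ifit3 went from 8.75, 11.5 and 12.3 CPM to 42.3, 39.2 and 33.5 CPM (1.82, edgeR adjusted p = 1.28e-05), without overlap. Ifit3 shares 51.2% of its 50-base windows with Ifit3b, so reads may be split between them, and Ifit3b itself was 1.28 higher at 72 h (edgeR adjusted p = 7.38e-06). Ifit2 fell at 6 h, to 15.9, 9.66 and 13.3 CPM from 19.2, 20.1 and 21.3 CPM (-0.64 ± 0.14, edgeR adjusted p = 0.0029), and rose at 72 h (1.20, edgeR adjusted p = 4.99e-07).

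The OAS family makes or relates to the makers of 2-5A, the messenger that switches on RNase L. All 5 members were higher at 72 h and 4 of them at 24 h. Oas3 showed the largest rise of all members at 6, 24 and 72 h. It was at 0.152, 0.311 and 0.311 CPM in sham, which is 3 to 7 counts a library. It reached 5.78, 1.34 and 1.28 CPM at 6 h, 3.50, 1.34 and 9.75 CPM at 24 h and 13.2, 11.8 and 10.8 CPM at 72 h. Every one of these libraries lay above every sham library. The log2 fold changes were 3.38 ± 0.85, 4.17 ± 0.82 and 5.49 ± 0.79 SE, with edgeR adjusted p = 0.00866, 0.000967 and 2.06e-05. The 6 h mean of 2.80 CPM was 1.31 CPM without its replicate 1, which ended the call, and the 24 h mean of 4.86 CPM was 2.42 CPM without its replicate 3. Oasl1, a relative without 2-5A synthesis, rose from 2.78, 2.02 and 2.18 CPM to 4.75, 3.22 and 10.3 CPM at 24 h (1.37, edgeR adjusted p = 0.00519) and 12.5, 12.0 and 9.07 CPM at 72 h (2.26, edgeR adjusted p = 2.16e-05). Neither group overlapped sham, and the 24 h mean was 3.98 instead of 6.08 CPM without replicate 3. Oas1a, Oas2 and Oasl2 were 2.67, 0.98 and 1.95 higher at 72 h. The 24 h calls of Oas1a (1.02) and Oasl2 (0.98) were lost without replicate 3. That of Oasl2 was also lost without sham replicate 1 or 2, with no filter and in the fit on the 2 groups. Oas1a shares 57.6% of its windows with Oas1g, which was 3.05 higher at 72 h.

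Isg15, a ubiquitin-like protein attached to other proteins, was at 5.31, 3.63 and 5.77 CPM in sham, 9.49, 7.11 and 21.2 CPM at 24 h and 31.3, 25.7 and 27.0 CPM at 72 h. Replicate 3 of 24 h was set apart from its 2 companions, yet all 3 exceeded sham. Its log2 fold changes were 1.35 ± 0.33 at 24 h (edgeR adjusted p = 0.00417) and 2.51 ± 0.33 SE at 72 h (edgeR adjusted p = 6.17e-06). Without that library the 24 h mean was 8.30 instead of 12.6 CPM. Usp18, which removes ISG15 and restrains the type I receptor, was not called up to 24 h and rose at 72 h, from 5.56, 3.99 and 4.18 CPM to 13.6, 14.4 and 12.8 CPM (1.57, edgeR adjusted p = 1.44e-05). Herc6, the mouse ligase for ISG15, had the lowest log2 fold change of the members at 10 min (-0.57), with 3.67, 2.02 and 2.96 CPM against 3.39, 4.62 and 4.71 CPM in sham. The groups overlapped and the difference was not called (edgeR adjusted p = 0.604). Herc6 rose by 72 h (0.91, edgeR adjusted p = 0.000955). At 6 h it was not called in the TMM fit over all libraries. It was called lower there with library-size scaling (-0.73), at least 10 counts in every library, the replicate block, DESeq2 and without sham replicate 1. Usp18 was called lower at 6 h with library-size scaling (-0.66) and without 6 h replicate 1 (-0.82).

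The interferon-induced GTPases divided into the Mx and the guanylate-binding (GBP) genes. Mx1 was at 0.404, 0.570 and 0.844 CPM in sham and 0.483, 0.178 and 0.350 CPM at 1 h. Its log2 fold change at 1 h was the lowest of the members (-0.82, edgeR adjusted p = 0.934, overlapping). At 24 h it was at 1.34, 1.91 and 2.99 CPM (1.74 ± 0.36, edgeR adjusted p = 0.000833). At 72 h it reached 14.0, 13.4 and 12.1 CPM (4.41 ± 0.34 SE, edgeR adjusted p = 3.28e-09). Both later groups were clear of sham. Mx2, annotated as a polymorphic pseudogene, was called at 72 h alone (1.33, edgeR adjusted p = 0.000756).

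The GBP members, which attack vacuoles that hold pathogens, fell first. Gbp7 went from 20.1, 24.1 and 25.5 CPM in sham to 12.9, 10.7 and 13.5 CPM at 6 h and 10.5, 10.9 and 12.5 CPM at 24 h. Neither group overlapped sham, and the differences were -0.91 ± 0.14 and -1.05 ± 0.14 SE (edgeR adjusted p = 0.00018 and 2.8e-05). At 72 h it was at 19.1, 22.5 and 19.2 CPM, overlapping sham (-0.20, edgeR adjusted p = 0.222), and 0.85 above 24 h. With library-size scaling the 72 h value was 0.39 and called, below the shift of all genes. Gbp2 was at 19.1, 22.3 and 22.8 CPM in sham, 12.6, 13.2 and 13.9 CPM at 24 h (-0.70 ± 0.10, edgeR adjusted p = 2.88e-05) and 25.1, 25.4 and 25.5 CPM at 72 h (0.24, edgeR adjusted p = 0.0288). The 72 h call was lost without sham replicate 1 or any single 72 h library, and with no filter. Gbp3 followed, at -0.62, -0.85 and 0.66 at 6, 24 and 72 h. The 6 h fall of Gbp2 (-0.31) was lost without replicate 2 or 3 of either group. It was also lost with no filter and in the fit on the 2 groups. That of Gbp3 was lost without sham replicate 3 or 6 h replicate 2. The 24 h falls of Gbp2, Gbp3 and Gbp7 held under every alternative tried, including library-size scaling.

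**Figure D4:**
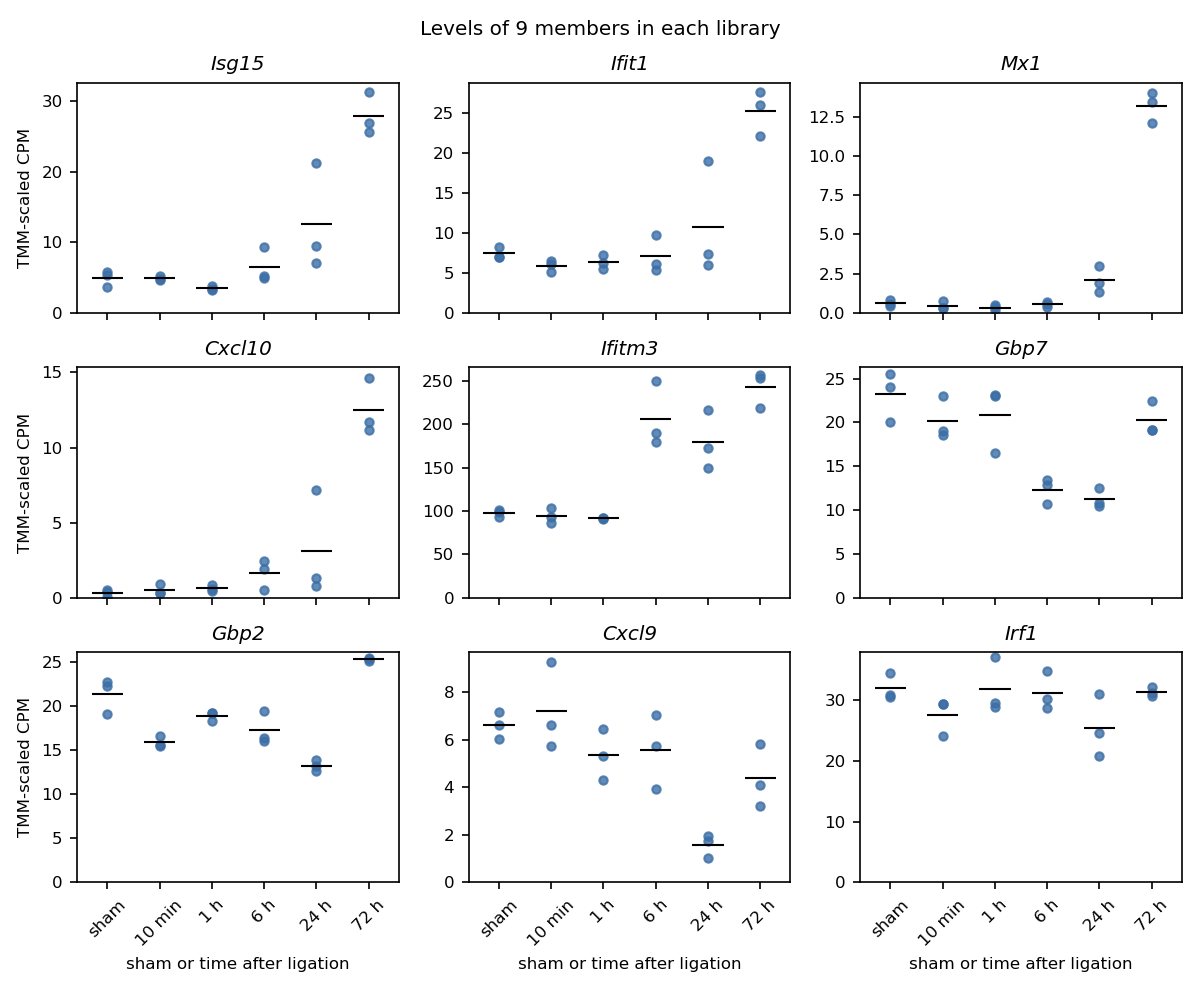
TMM-scaled CPM (y axes from 0) of 9 members in each of the 18 libraries by group (x axes). Points are libraries and bars group means. Isg15, Ifit1, Mx1 and Cxcl10 were highest at 72 h, with replicate 3 at 24 h set above the other two, while Gbp7 and Gbp2 dipped at 6 and 24 h and Cxcl9 at 24 h.

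Of the 4 membrane and nucleotide proteins, Bst2, Ifitm3 and Cmpk2 rose at 72 h. Ifitm3, which blocks viral fusion, was at 99.2, 92.7 and 101 CPM in sham, 250, 190 and 179 CPM at 6 h, 149, 172 and 216 CPM at 24 h and 257, 253 and 219 CPM at 72 h. No library from 6 h on overlapped sham. The log2 fold changes were 1.08 ± 0.13, 0.88 ± 0.13 and 1.31 ± 0.13 SE (edgeR adjusted p = 2.17e-05, 6.86e-05 and 9.6e-08). Ifitm3 was the one member whose 6 h rise was kept under every alternative tried. Bst2 (tetherin), which holds budding virus at the cell surface, had the smallest adjusted p at 72 h. It was at 31.8, 30.0 and 35.4 CPM in sham, 36.7, 44.1 and 48.6 CPM at 24 h (0.41, edgeR adjusted p = 0.00597) and 126, 110 and 106 CPM at 72 h (1.82 ± 0.11 SE, edgeR adjusted p = 2.35e-10). Rsad2 (viperin), which makes a chain-terminating nucleotide, lies beside Cmpk2, which supplies nucleotides. Rsad2 was at 25.3, 27.2 and 25.4 CPM in sham, 16.4, 10.4 and 35.9 CPM at 24 h and 39.9, 43.5 and 36.0 CPM at 72 h. The 72 h libraries were all above sham, but the difference was not called (0.62 ± 0.31, edgeR adjusted p = 0.0939). DESeq2 and the fit on those 2 groups called it. So did library-size scaling (1.20, edgeR adjusted p = 0.00237), above the shift of all genes of 0.61. Without replicate 3 the 24 h mean was 13.4 instead of 20.9 CPM, and the 24 h difference was called lower (-0.96, edgeR adjusted p = 0.00169). Cmpk2 fell at 6 h, from 13.8, 15.8 and 15.9 CPM to 8.82, 7.66 and 8.95 CPM (-0.84 ± 0.17, edgeR adjusted p = 0.00157), and rose at 72 h (0.75).

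The chemokines Cxcl9 and Cxcl10, ligands of CXCR3 that attract T and NK cells, moved in opposite directions at 24 h. Cxcl10 was at 0.0506, 0.519 and 0.400 CPM in sham, 2.44, 1.91 and 0.479 CPM at 6 h, 1.34, 0.778 and 7.17 CPM at 24 h and 11.7, 14.6 and 11.2 CPM at 72 h. The 6 h libraries overlapped sham (2.29, edgeR adjusted p = 0.0814), and the later ones did not. At 6 h Cxcl10 was called higher by DESeq2 (2.32), in the fit on the 2 groups (2.29) and without 6 h replicate 3 (2.72). The differences were 3.19 ± 0.88 at 24 h (edgeR adjusted p = 0.0091) and 5.24 ± 0.84 SE at 72 h (edgeR adjusted p = 6.07e-05). The 24 h call was lost without replicate 3, where the mean was 1.06 instead of 3.09 CPM, and in the fit on the 2 groups. At 10 min and 1 h Cxcl10 had the highest log2 fold changes of the members, 0.65 and 0.93, with SE of 1.10 and 1.07 and no call. It lies within Art3 on the opposite strand, which had 123579 counts over all libraries against 1566 for Cxcl10, so the low sham level cannot be told apart from Art3 reads if counting ignored strand. Cxcl9, induced mainly by interferon gamma, was at 6.02, 6.64 and 7.15 CPM in sham, 1.73, 1.95 and 1.03 CPM at 24 h and 5.84, 3.23 and 4.10 CPM at 72 h. All 24 h libraries were below sham (-2.05 ± 0.28 SE, edgeR adjusted p = 2.99e-05). At 72 h the difference was -0.59 (edgeR adjusted p = 0.0512). It was called lower with no filter, in the fit on the 2 groups, with the replicate block and without 72 h replicate 1. The 72 h level was 1.46 above 24 h (edgeR adjusted p = 0.0003). The sum of 8 T and NK cell markers was 1.64 to 2.70 CPM in sham, 2.12 to 2.37 CPM at 24 h and 6.15 to 9.36 CPM at 72 h.

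Of the 8 remaining members, 6 rose at 72 h. Ifi27l2a, a small protein strongly induced by type I interferon, rose from 12.0, 15.3 and 16.5 CPM to 91.5, 58.6 and 65.4 CPM (2.30 ± 0.17 SE, edgeR adjusted p = 2.19e-09), without overlap. It was already 0.62 and 0.58 higher at 6 and 24 h, calls that were both lost without sham replicate 1, and at 6 h without 6 h replicate 2. Rtp4 (1.66), Trim30a (1.64), Ifi44 (1.31), Parp9 (0.81) and Parp14 (0.67) completed the 6. Ifi44 (-0.71), Parp9 (-0.31) and Parp14 (-0.52), the last 2 being ADP-ribosyltransferase family members, had fallen at 6 h. The falls of Ifi44 and Parp9 were lost without any single sham library or 6 h replicate 2 or 3. Both were also lost in the fit on the 2 groups, and that of Parp9 with no filter. Xaf1, a proapoptotic protein, fell at 6 h (-0.55) and 24 h (-0.51) and was 0.34 at 72 h (edgeR adjusted p = 0.0803). At 72 h it was called higher with library-size scaling (0.93), at least 10 counts in every library (0.40) and the fit on the 2 groups (0.36). Its 6 h fall was lost in the fit on the 2 groups and without any single sham library or 6 h replicate 2. Its 24 h fall was lost with library-size scaling and without sham or 24 h replicate 1 or 2. Ifi35 stayed between -0.27 and 0.11 at all 5 times and was not called in the TMM fit. With library-size scaling its 72 h value was 0.59 and called higher (edgeR adjusted p = 0.000845), below the shift of all genes. Rtp4 overlaps Masp1, and Parp9 overlaps Dtx3l, each on the opposite strand.

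Sorted by their calls at 6, 24 and 72 h in the TMM fit over all libraries, the members fell into 9 courses. The most frequent was a rise at 72 h alone, in 10 members (Irf7, Stat2, Ifit1, Ifit3, Oas2, Usp18, Herc6, Mx2, Rtp4 and Trim30a). In 8 the rise was called from 24 h (Dhx58, Oas1a, Oasl1, Oasl2, Isg15, Mx1, Bst2 and Cxcl10), and in 5 from 6 h (Irf9, Zbp1, Oas3, Ifitm3 and Ifi27l2a). In 6 a fall at 6 h came before the rise at 72 h (Ddx58, Ifit2, Cmpk2, Ifi44, Parp9 and Parp14), and Gbp2 and Gbp3 fell at 6 and 24 h before rising. Gbp7 and Xaf1 fell at both times and were not called at 72 h. Ifih1 fell at 24 h and rose at 72 h, and Cxcl9 fell at 24 h alone. Irf1, Rsad2 and Ifi35 were called at none of these times in the TMM fit over all libraries. These courses rest on calls, and differences between courses were not tested. No called difference of a member changed sign under any alternative tried. Of the 32 rises at 72 h, 31 were called in every alternative that tested the gene, Gbp2 being the exception. The filter of at least 10 counts in every library left Oas3, Mx1 and Cxcl10 untested. At 6 h, 4 of 10 falls (Ifit2, Gbp7, Cmpk2 and Parp14) and 1 of 5 rises were called in every alternative that tested the gene. At 24 h, 7 of 13 rises and 4 of 6 falls were.

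Levels between genes were compared per length, with the deposited FPKM. In sham, Ifitm3 led the members at 134 ± 9.49 FPKM (SD, n = 3), ahead of Bst2 at 33.3 and Ifi27l2a at 29.3, and Oas3 was last at 0.0339. At 72 h the order began with Ifitm3 at 498 ± 30.9, Ifi27l2a at 215 ± 47.6, Bst2 at 176 ± 12.2 and Isg15 at 51.4 ± 4.54 FPKM, and Herc6 was last at 1.19. The SD ranges of Ifi27l2a and Bst2 overlapped at 72 h, and their difference within libraries was not tested.

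Upstream of the members, transcripts of the interferons themselves were scarce. Of 15 ligand genes listed, 5 were in the count table and none passed the filter. Ifnb1, the interferon that many cell types make first, had 0 to 2 counts a library, and Ifng, the interferon of T and NK cells, had 0 to 4. At this depth a difference between groups was not detectable for them. No gene of the receptor, kinase, regulatory factor, sensing or other interferon-stimulated lists below was called at 10 min or 1 h by edgeR. The smallest adjusted p among them was 0.334 at 10 min (Gbp5) and 0.072 at 1 h (Irf2bp2).

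Of 6 receptor genes, 3 rose and 3 fell at 72 h (3 and 1 with library-size scaling). Of all genes, 34.2% rose and 32.2% fell at 72 h (58.1% and 14.6% with library-size scaling). The chains of the type I receptor both rose. Ifnar1 went from 30.1, 24.5 and 30.2 CPM to 62.3, 76.0 and 67.4 CPM (1.28 ± 0.14 SE, edgeR adjusted p = 2.36e-07) and Ifnar2 from 26.7, 25.1 and 25.3 CPM to 46.7, 48.9 and 50.9 CPM (0.93, edgeR adjusted p = 9.59e-08). Of the interferon gamma receptor chains, Ifngr1 rose (0.49) and Ifngr2 fell (-0.71, not called with library-size scaling). Il10rb fell at 24 h (-0.59, edgeR adjusted p = 0.000238), and Ifngr2 had the smallest adjusted p of the list at 6 h (-0.74, edgeR adjusted p = 0.000149).

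Among the kinases and feedback genes, Tyk2 fell at 6 h (-0.50) and rose at 72 h (0.58), and Jak1 was called at no time in the TMM fit, and higher at 72 h with library-size scaling. The feedback inhibitor Socs1 rose at 6, 24 and 72 h (1.65, 1.35 and 2.40). Its 6 h mean was 1.92 instead of 3.16 CPM without replicate 1 and its 24 h mean 1.65 instead of 2.60 CPM without replicate 3. Both calls were lost without those libraries and without sham replicate 1 or 3. Socs3, an inhibitor induced chiefly by the interleukin 6 family, was at 6.07, 6.59 and 5.64 CPM in sham and 360, 155 and 119 CPM at 6 h (5.12 ± 0.67 SE, edgeR adjusted p = 0.000135). Its 6 h mean was 137 instead of 211 CPM without replicate 1. The phosphatase gene Ptpn6, expressed mainly in blood cells, rose to 63.5, 70.1 and 66.8 CPM at 72 h from 5.26, 5.29 and 6.49 CPM (3.55, edgeR adjusted p = 9.27e-08). Its rise at 24 h was 2.65, and the 24 h mean was 23.8 instead of 35.9 CPM without replicate 3.

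Of 7 other regulatory factors, 3 rose at 6 h and 2 at 72 h (2 and 6 with library-size scaling). Of all genes, 16.3% rose at 6 h and 34.2% at 72 h (11.7% and 58.1% with library-size scaling). At 6 h, 1 of the 7 factors rose without 6 h replicate 1, without sham replicate 1 or 2, or with no filter on low counts. At 72 h, 4 rose in the fit on the libraries of the 2 groups alone. Irf8, a factor of monocytes and dendritic cells, rose at 6, 24 and 72 h (1.42, 1.55 and 2.92, the last with edgeR adjusted p = 3.37e-09), and Irf5 likewise (1.16, 2.48 and 3.52), its 6 h call being lost without any single sham library or 6 h replicate 1. Irf3, which starts interferon transcription after sensing, was called at no time in the TMM fit. Of 13 sensing genes tested, 6 rose and 2 fell at 6 h, 11 and 1 at 24 h, and 12 and 1 at 72 h. The shares of all genes were 16.3% and 12.2% at 6 h, 23.7% and 20.2% at 24 h, and 34.2% and 32.2% at 72 h. Of the 13, 3 rose at 6 h without 6 h replicate 1, without sham replicate 1, or with library-size scaling. Tmem173 (STING), the adaptor for cytosolic DNA, rose from 5.91, 4.77 and 6.44 CPM to 32.4, 21.8 and 23.1 CPM at 6 h (2.17 ± 0.22 SE, edgeR adjusted p = 4.41e-06). Unc93b1, which carries nucleic acid receptors to endosomes, rose by 2.66 at 72 h (edgeR adjusted p = 9.76e-11) after a fall at 6 h (-0.76). Mavs, the mitochondrial adaptor of the RNA sensors, was the one that fell at 72 h (-1.16).

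Of 58 further interferon-stimulated genes tested, 9 rose and 15 fell at 6 h, 11 rose and 15 fell at 24 h, and 39 rose and 5 fell at 72 h. Of all genes, 16.3% rose and 12.2% fell at 6 h, 23.7% and 20.2% at 24 h, and 34.2% and 32.2% at 72 h. With library-size scaling these counts were 8 and 20 at 6 h, 17 and 7 at 24 h, and 48 and 1 at 72 h. Iigp1 and Gbp9 then changed sign at 72 h. Without 24 h replicate 3, 7 rose and 17 fell at 24 h. Epsti1 had the smallest adjusted p at 72 h (3.89, edgeR adjusted p = 3.78e-10), Ms4a4c at 24 h (4.10, edgeR adjusted p = 8.31e-07) and Ifitm2 at 6 h (0.97, edgeR adjusted p = 7.41e-06). Gbp4 and Gbp5, relatives of the GBP members, fell at 6, 24 and 72 h. The log2 fold changes were -1.28, -1.30 and -1.14 for Gbp4 and -1.03, -1.05 and -0.68 for Gbp5, the last not called with library-size scaling.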

How the data were processed

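Per the submitters' processing notes, reads were handled with cutadapt 1.18, HISAT2 2.1.0 and featureCounts on mm10; the annotation, the strand setting and the treatment of multimapping reads are not given in the sources used here. The authors deposited whole-number counts per gene and FPKM, which is the count divided by gene length and library total; the FPKM columns of 6 h replicates 2 and 3 hold each other's counts, within 1 group. Per the labels' protocols, libraries were made from poly(A) RNA and amplified by PCR, with no molecular identifiers described, so counting limits cover counting error only. Of 30583 gene IDs, 30512 matched GENCODE M21 (GRCm38), which gave the symbols.

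The fit used edgeR 4.0.16 under R 4.3.3 (filterByExpr, TMM, robust quasi-likelihood fit, 1 mean per group over 18 libraries, two-sided), adjusted by Benjamini-Hochberg over 16311 genes. The script was tested on simulated counts. Values for every library are given for members with the smallest adjusted p or the extreme change in a contrast with sham and for a short list of well-known members, and other members by their changes. Promoter positions count bases before the start, the last one being 1. The members and lists were chosen with earlier results of these data known. Alternatives were RLE and library-size scaling, other count filters, fits on 2 groups, a replicate block, each library left out, and DESeq2 1.42.0.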

Additional observations from a re-analysis of the deposited data

How the results depend on the processing

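Of the counts of members called, those at 24 h, at 72 h, from 24 to 72 h and at any time stayed within 1.5 times under every alternative, and the others did not. From 6 to 24 h, 10 members became 19 with library-size scaling and 3 with a fit on those 2 groups, and 5 to 13 with a library left out. Fits on 2 groups also called 2 members at 10 min (Ifit2 and Gbp2, lower), 1 at 1 h (Oasl2, lower) and 1 from 10 min to 1 h, and DESeq2 called 1 at 10 min, each against 0. With a library left out, counts ran from 8 to 13 at 6 h, 15 to 20 at 24 h, 31 to 32 at 72 h, 6 to 11 from 1 to 6 h, 29 to 37 from 24 to 72 h, 34 to 37 at any time, and 0 to 0 in the comparisons of the first hour. Counts over all genes moved too. At 10 min 12 became 386 (2 groups), 60 (DESeq2) and 26 (no filter); at 1 h 48 became 208 (2 groups) and 95 (DESeq2); from 10 min to 1 h 50 became 262 (2 groups) and 133 (DESeq2); and from 6 to 24 h 4541 became 6880 (library size) and 1035 (2 groups). Deviations of same-numbered libraries from their group means had a median r of 0.0351 (4 of 45 pairs over 0.1). For differently numbered libraries it was -0.0128 (9 of 90 pairs over 0.1). Of the 18 libraries, 9 were closest to their own number. Correlations this weak cannot decide whether the numbers pair the mice. With the replicate number as a block, 16, 21 and 33 members were called at 6, 24 and 72 h, and the additional call at 72 h was Cxcl9, lower (-0.61). Depth limits the interferon genes, with at most 4 counts a library.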
